A study of Danio rerio with 72 samples.

Results

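The claudin genes are 34 of the 25067 genes in the deposited expression tables, chosen as every gene whose symbol begins with cldn in upper or lower case, apart from the symbols that begin with cldnd. They were followed through laser-captured tissue from frozen sections of zebrafish tail, cut at 52 hours after fertilization and stained with cresyl violet. Each section gave 6 captures: caudal vein plexus (CVP), caudal vein (CV), caudal artery (CA), neural tissue (N), left muscle (L) and right muscle (R). CVP, CV and CA together are called the caudal hematopoietic tissue (CHT) here, and L and R together are called muscle. The sections form set M (layers 2, 6, 8, 12, 15 and 17) and set Z (layers 1, 6, 10, 19, 22 and 25), each deposited as a table of its own. The labels give no genotype, strain or treatment, and neither the meaning of M and Z nor the number of embryos behind the sections is given in the sources used here. Sections may share an embryo, so a p-value speaks of variation among sections. Of 72 libraries, 71 were used: L of layer 6 in set Z was left out, since all 7859 genes with reads equal the mean of L in layers 1 and 10, rounded up.

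Claudins are membrane proteins of the tight junction. Their extracellular loops meet those of the next cell and seal or selectively open the path between cells, and their tails bind scaffold proteins of the ZO family. Tissues carry their own sets of claudins: skin layers in fish use several duplicated genes without a direct mammalian counterpart (cldnb, cldne, cldnf, cldni), endothelium is known for claudin 5, and neuroepithelium and glia use others. A laser capture takes tissue by its position, so the claudins of a capture are those of every cell type in its outline.

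The captures were first set against markers of 4 tissues, as the mean log2(FPKM + 1) of a list in a library, where FPKM is reads scaled to gene length and library total. The 24 neural markers stood at 6.85 to 7.40 in N of set M and 7.12 to 7.65 in N of set Z, and at no more than 2.07 in any other capture. The muscle markers stood at 9.16 to 11.5 in L and R, and at up to 10.6 and 9.12 in CA of set M and Z. The 24 epidermis markers went against the label in CV, where they stood at 6.84 to 8.10 in set M and 5.90 to 6.85 in set Z, with medians of 15049 and 14126 FPKM for the keratin krt4. The 22 endothelium markers in the tables stood at 0.36 to 2.56 in CV of set M, with 3 to 15 of them above 0 and a median of 0.65 FPKM for the receptor kdrl, so the vessel label was weakly borne there. They stood at 3.30 to 4.47 in CV of set Z, at 3.29 to 5.30 and 3.99 to 4.88 in CVP of set M and Z, and at 1.73 to 4.20 and 2.37 to 5.10 in CA. Muscle captures also held epidermis markers, with levels from 0.88 to 6.11 in set M and 1.65 to 6.55 in set Z. CVP captures held them too, at 2.83 to 7.63 in set M and 3.84 to 6.36 in set Z, with medians of 4.78 and 5.43. Libraries of layer 17 in set M stood apart, with epidermis levels of 7.94 in CA and 7.63 in CVP, and the CA library of layer 6 in set Z had no claudin above 0. Depth ran from 75069 to 875598 reads a library in set M and from 91122 to 4011028 in set Z, and in set M every N library held more reads (535297 to 726644) than any CVP (91698 to 324368), CV (75069 to 487557) or CA (92506 to 245780) library. The part of depth in the results was not tested beyond the alternatives given at the end.

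Genes were tested where they had at least 1 FPKM in at least 6 libraries of a set. That left 18 claudins in set M and 18 in set Z, 16 of them in both and 20 in either. Of the other 14, cldn17 and CLDN22 were at 0 in every library and 12 had reads somewhere. A gene seen in a single region passes this filter through that region alone, so the counts of called claudins below describe the tested claudins and not the family, and each stands beside the share of all tested genes called the same way. Several claudins reached 6 libraries only with the captures where they were called high. Through N these were cldn7a and cldn5a in both sets and CLDN4 in set M. Through CHT they were cldn5b, cldn7b and cldne in set M, cldng in set Z and cldn11a in both. Through CV it was cldnf in set Z. The p-values of those calls add no support to the reads.

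Summed over the family, claudin FPKM was highest in CV, with a median of 1297 FPKM in set M and 1041 FPKM in set Z. Its median was 299 and 391 FPKM in CVP, 179 and 145 FPKM in CA, 366 and 478 FPKM in N, 75.4 and 486 FPKM in L, and 62.9 and 346 FPKM in R (set M and Z in each pair). The makeup differed by region. Of the summed mean FPKM of CV, cldni held 52.8% in set M and 36.8% in set Z, followed by cldn1 with 11.3% and 16.1%. In N of set M cldn5a led with 30.4%, then cldn19 with 19.4%. In N of set Z cldn7a led with 37.8%, then cldn5a with 20.8% and cldn19 with 16.7%. In CA of set Z cldn5b held 47.8%, whereas in CA of set M cldni held 57.5% and cldn5b 12.4%, and the cldni of that group came mostly from the layer 17 library, where it read 2173 FPKM. Without that library, an alternative chosen after seeing the data, cldn5b held 61.3% and cldni 7.46%. In CVP of set M cldni held 32.0%, cldne 16.2% and cldn5b 9.90%, whereas without the layer 17 library cldni held 18.6%, cldn5b 17.6% and cldn11a 15.0%. In CVP of set Z cldni held 24.1% and cldn5b 21.4%. As in CV, cldni and cldn1 led in muscle. They held 45.8% and 16.6% in L of set M, and 33.9% and 41.2% in R. In set Z they held 26.4% and 28.6% in L, and 38.7% and 31.9% in R.

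**Figure D1:**
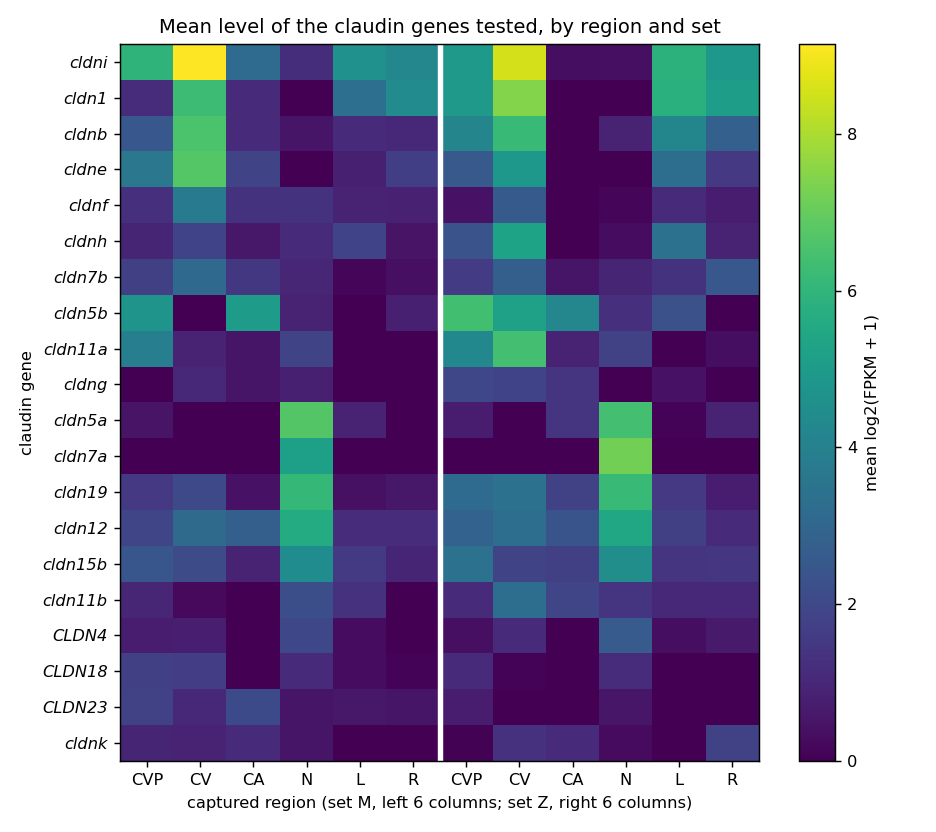
Mean log2(FPKM + 1) of the 20 claudins tested in either set (rows), in the 6 regions of set M and the 6 of set Z (columns; n = 6 libraries each, 5 for L of set Z). The cldni, cldn1, cldnb and cldne rows are brightest in CV, the cldn5b row in CVP and CA with CV added in set Z, and the cldn5a, cldn7a, cldn19 and cldn12 rows in N.

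The claudins of skin led the vein captures. cldni, an epidermal claudin of fish, was above 0 in all 12 CV libraries, and against CA it rose by 5.94 ± 1.1 on the log2(FPKM + 1) scale in set M and by 8.21 ± 1.23 in set Z (limma-trend with Benjamini-Hochberg adjustment over all genes, adjusted p = 0.00073 and 2.3e-05; ± is the standard error throughout). It ranged over 193, 586 and 1927 FPKM (lowest, median and highest) in CV of set M, against 0, 2.10 and 2173 FPKM in CA, and over 219, 341 and 762 FPKM in CV of set Z, against 0, 0 and 3.37 FPKM in CA. In set Z the groups do not overlap, and in set M they overlap through the layer 17 CA library alone, the next CA library being at 54.3 FPKM.

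cldn1, whose mouse counterpart is needed for the skin water barrier, read 0, 165 and 262 FPKM in CV of set M and 79.8, 196 and 228 FPKM in CV of set Z. It was at 0 in 5 of 6 CA libraries of set M, the layer 17 library being at 111 FPKM, and in 6 of 6 of set Z. The rise over CA was 5.15 ± 1.08 and 7.43 ± 1.12 (log2), higher in 5 of 6 and 6 of 6 sections. In set Z summed reads put it at least 302-fold higher, with the 0 of CA set at 3 reads over the group. The CV library of layer 15 in set M listed it at 0. That library had the fewest reads of the set (75069), and 3 reads would give 54.3 FPKM there, against 8.36 FPKM in the deepest CV library. The other CV libraries of set M read 131 to 262 FPKM, all above 54.3 FPKM, and the cause of the 0 was not tested.

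cldnb, a claudin of fish epidermis and of the lateral line primordium, read 24.1, 82.5 and 347 FPKM in CV of set M and 4.30, 103 and 374 FPKM in CV of set Z. In CA it was at 0 in all but the layer 17 library of set M, at 114 FPKM. It rose in CV by 5.41 ± 0.98 and 6.16 ± 1.22 (log2), in 6 of 6 sections of each set. cldne, its epidermal relative, rose by 4.86 ± 1.00 and 4.85 ± 0.88 (log2), with medians of 95.4 and 34.3 FPKM in CV and of 0 FPKM in CA of both sets. All 4 genes thus rose in CV over CA in each set, and only cldni in set M lost its call under another setting, limma-voom on the recovered reads (adjusted p = 0.077, over a range of 5.7e-06 to 0.077).

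Further claudins rose in CV against CA in set Z alone. cldnh read 0.787, 66.2 and 246 FPKM in CV of set Z and 0 in all 6 CA libraries, a rise of 5.32 ± 1.17 (log2, adjusted p = 0.0039), and cldnf, another epidermal claudin, rose by 2.59 ± 0.65 (adjusted p = 0.014), a call lost with 4 of 6 sections left out. Outside CV of set Z cldnf was above 0 in 1 CVP, 1 N, 2 L and 2 R libraries, at 0.58 FPKM in N. It thus passed the filter through CV, so its p-value adds no support to the reads. In set M cldnh reached 181 FPKM in CV with 2 of 6 libraries above 0, and its difference from CA was not called, nor was that of cldnf with a median of 25.0 FPKM in CV against 0 in CA. The difference between sets was not called for either gene. Neighbouring claudins on the genome (cldnj, cldne, cldnf and cldna, and cldnh, cldnc and cldnb, with no protein-coding gene between successive members in the RefSeq GRCz12tu annotation) are tandem copies, and how reads shared between close copies were counted is not given in the sources used here.

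Over the tested claudins, 4 of 18 rose and 1 fell in CV against CA in set M, where 1.41% of all tested genes rose and 1.26% fell, and 7 of 18 rose and none fell in set Z, where 3.41% rose and 0.894% fell. The epidermis marker list moved with them: 16 of 24 tested markers rose in CV in set M and 16 of 22 in set Z, and none fell. Muscle markers moved the other way, 20 of 24 falling in CV in each set, and 4 of 21 endothelium markers fell in set M and 1 of 22 in set Z, where 1 rose. The part of these cells in the differences between regions was not tested.

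**Figure D2:**
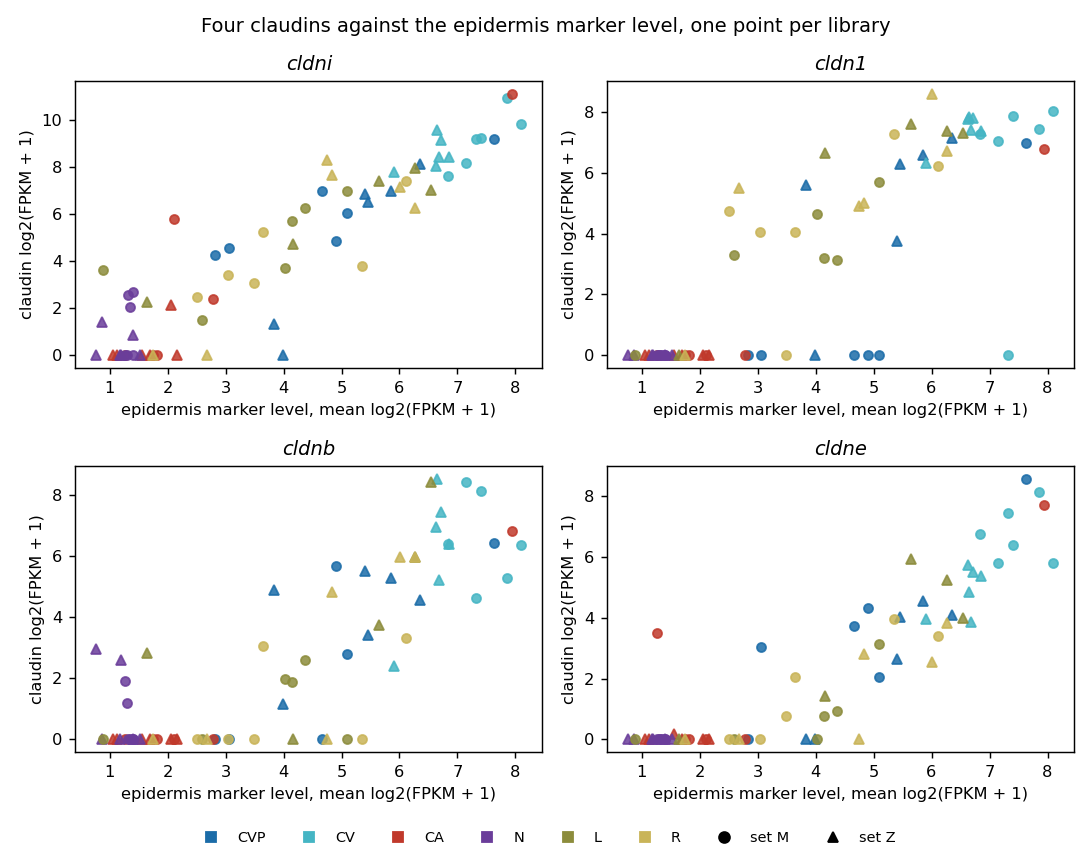
Level of cldni, cldn1, cldnb and cldne (vertical, log2(FPKM + 1)) against the epidermis marker level of the same library (horizontal, mean log2(FPKM + 1) of 24 markers), 1 point for each of 71 libraries, coloured by region, circles for set M and triangles for set Z. Most CV libraries and the layer 17 CA and CVP libraries of set M lie at the upper right, apart from the CV library of layer 15 in set M at 0 for cldn1 and that of layer 25 in set Z at 4.30 FPKM for cldnb, N and most CA libraries at the lower left, and muscle libraries spread between.

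Within regions and sections, cldni, cldne and cldnb in both sets and cldn1 in set Z rose with the epidermis marker level, though no call of set M held with each section left out. In a fit of region, section and epidermis marker level, cldni rose by 1.14 ± 0.24 log2 units for each unit of marker level in set M and by 1.54 ± 0.25 in set Z (limma-trend, adjusted p = 0.013 and 0.00029). cldne rose by 0.99 ± 0.22 and 1.01 ± 0.19, and cldnb by 0.95 ± 0.22 and 1.27 ± 0.28. cldn1 rose by 1.40 ± 0.22 in set Z, while its slope of 0.92 ± 0.26 in set M was not called (adjusted p = 0.14). That made 3 of 18 tested claudins in set M, where 0.438% of all tested genes rose and 0% fell, and 4 of 18 in set Z, where 0.665% rose and 0.0242% fell. No claudin fell in either set. Without the layer 17 CA library of set M 0 claudins passed there, and the slopes of cldni, cldne and cldnb were 0.88 ± 0.29, 0.91 ± 0.28 and 0.82 ± 0.28. With any 1 section left out 0 to 2 passed in set M and 2 to 4 in set Z. In set M the call of cldni held with 2 of 6 sections left out, and those of cldne and cldnb with 1 of 6 each. In set Z those of cldni and cldn1 held with 6 of 6, that of cldne with 5 and that of cldnb with 2. The cldnb call of set Z was also lost with quantile scaling and with the count of detected genes in the fit. No claudin outside the skin group passed, and cldn5b and cldn5a had no called slope.

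N captures held little or nothing of these genes. cldn1 and cldne had 0 reads in all 12 N libraries. cldnb was above 0 in 2 of 6 N libraries of each set and cldni in 3 and 2 of 6, where cldnb read at most 2.76 FPKM in N of set M and 6.72 FPKM in N of set Z, and cldni at most 5.41 and 1.65 FPKM. The epidermis marker level of N was 1.27 to 1.40 in set M and 0.77 to 1.52 in set Z. CHT against N, cldni was 4.90 ± 0.90 and 4.25 ± 1.00 higher (log2), cldne 4.07 ± 0.81 and 2.49 ± 0.72 and cldn1 2.86 ± 0.88 and 4.11 ± 0.91, all called in both sets. In set M the call of cldn1 was lost without layer 17 (2.05 ± 0.88, adjusted p = 0.086), and those of cldn1, cldne and cldni with the count of detected genes in the fit. cldnb was called in set M alone (2.88 ± 0.80). Without the CV libraries, an alternative chosen after seeing the data, cldni and cldne stayed called in set M (3.38 ± 0.91 and 2.74 ± 0.80), cldnb did not in set M (1.3 ± 0.86, adjusted p = 0.28), cldn1 did not in either set (1.15 ± 0.83 and 2.45 ± 1.03), and in set Z neither cldne (1.29 ± 0.78) nor cldni (2.28 ± 1.11) did. In muscle the skin group was present: cldni ranged from 1.83 to 166 FPKM in L and R of set M and from 0 to 311 FPKM in set Z, and cldn1 was above 0 in 10 of 12 muscle libraries of set M and 9 of 11 of set Z.

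Among the claudins of vessels, cldn5b, the claudin 5 of zebrafish endothelium, rose in CHT against muscle in both sets. It read 5.95, 31.9 and 106 FPKM in CVP and 2.47, 32.7 and 252 FPKM in CA of set M, with all 12 libraries above 0. In set Z it read 53.8, 77.2 and 159 FPKM in CVP, 15.8, 33.5 and 78.0 FPKM in CV, and 0, 54.0 and 125 FPKM in CA, where the 2 libraries at 0 are those of layers 1 and 6, with 4731 and 3665 genes detected against 7546 to 13042 in the other CA libraries. It was at 0 in 11 of 12 muscle libraries of set M, the R library of layer 15 holding 26.7 FPKM, and at most 19.0 FPKM in muscle of set Z. The rise over muscle was 2.86 ± 0.56 and 4.24 ± 0.63 (log2, adjusted p = 0.00018 and 3.8e-06), in 6 of 6 sections of each set, and that over N was 2.36 ± 0.70 and 4.04 ± 0.76. Outside CHT cldn5b was above 0 in 3 N libraries and 1 R library of set M. It thus passed the filter there through CHT, so its p-values for these rises in set M add no support to the reads. Markers of several tissues moved with the rise over N, where 2.52% and 5.51% of all genes rose. These were 9 of 21 endothelium markers in set M and 18 of 22 in set Z, 18 of 24 and 16 of 22 epidermis markers, 17 of 24 and 0 of 24 muscle markers, and 1 of 13 and 11 of 15 blood markers, and none of these lists had a marker that fell. Their part was not tested. It was called under every alternative run for CHT against muscle. For CHT against N in set M it lost its call without layer 12, without layer 15 and once a library's count of detected genes entered the fit.

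CV parted the sets. In set M cldn5b was at 0 in all 6 CV libraries and fell by 5.05 ± 0.86 (log2) against CA, with 0 of 999661 reads in CV and 99 of 930481 reads in CA, at least 35.5-fold lower with the 0 set at 3 reads over the group. The layer 12 library gave 487557 of the CV reads, and 1 CA library gave 51 of the 99. The bound therefore does not cover spread among sections. In set Z cldn5b was above 0 in all 6 CV libraries, with a difference from CA of 1.02 ± 0.94 (adjusted p = 0.61). The difference between the sets was -6.07 ± 1.27 (set M minus set Z, adjusted p = 0.019), 1 of 16 claudins tested in both, where 0.186% of all genes differed. With quantile scaling it was -5.01 ± 1.25 and not called (adjusted p = 0.11). The endothelium markers of CV moved the same way, at 0.36 to 2.56 in set M and 3.30 to 4.47 in set Z, and their part in the difference was not tested. In bulk captures, fewer cells of a type and less RNA per cell cannot be told apart.

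**Figure D3:**
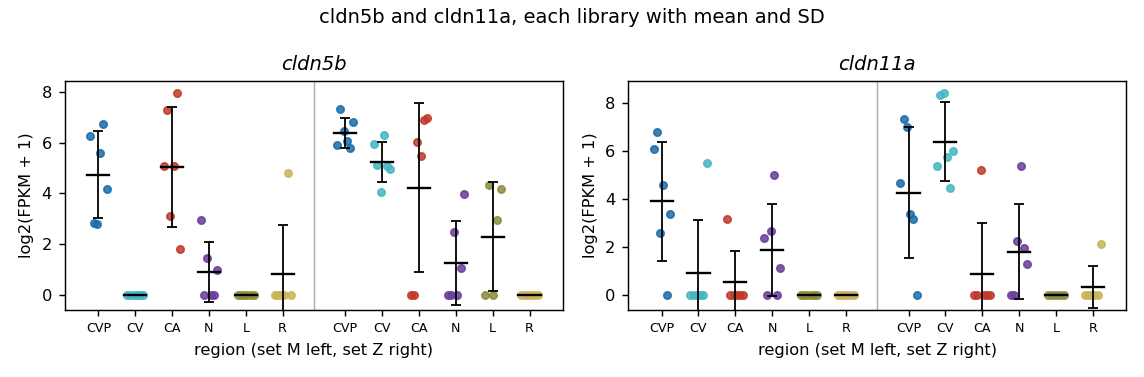
Level of cldn5b (left) and cldn11a (right) in each library, log2(FPKM + 1), by region of set M and set Z, with the mean and SD of each group in black. All 6 CV libraries of set M lie at 0 for cldn5b, and those of set Z lie at 15.8 to 78.0 FPKM, overlapping the CVP libraries.

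cldn11a was the other claudin that rose in CHT against muscle in both sets, by 1.78 ± 0.59 and 3.63 ± 0.65 (log2, adjusted p = 0.025 and 7.5e-05). Claudin 11 is known from myelin and Sertoli cells of mammals. It read 0, 16.1 and 111 FPKM in CVP of set M and 0, 17.1 and 162 FPKM in CVP of set Z, and 20.8, 58.7 and 344 FPKM in CV of set Z. It was at 0 in all 12 muscle libraries of set M and in 10 of 11 of set Z, the other reading 3.34 FPKM. In N it was above 0 in 4 of 6 libraries of each set and at most 41.0 FPKM, with a median below that of CVP. Outside CHT it thus fell short of the 6 libraries of the filter in each set. Its calls against muscle add no support to the reads. In CV and in CA of set M it was above 0 in 1 of 6 libraries each, fewer than in N. CHT against N, it was called in neither set. N against muscle, it rose by 1.87 (log2) in set M, a call that held in 3 of 6 other settings and with 3 of 6 sections left out. Its rise in CHT over muscle in set M was lost with 3 of 6 sections left out, with quantile scaling and with the count of detected genes in the fit. Against CA it rose in CVP by 3.37 ± 0.92 and 3.40 ± 0.97, and in CV by 5.53 ± 0.97 in set Z alone, where 36.3 FPKM in layer 10 was the sole CA value above 0. The difference between sets in CV against CA was -5.15 ± 1.36 and not called (adjusted p = 0.088). Its rise in CVP over CA lost its call with 4 of 6 sections left out in each set, the lowest and highest adjusted p being 0.021 and 0.64 in set M and 0.018 and 0.20 in set Z. Its slope on the endothelium marker level was not called in either set, nor was that of any tested claudin by limma-trend, the tool used for slopes. At an unadjusted p under 0.05 there were 2 of 18 claudins in set M and 0 in set Z, beside 2120 of 18263 and 1125 of 16547 genes. At the adjusted threshold 0.0602% and 0% of all genes were called.

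Counting over the tested claudins, 5 of 18 rose and none fell in CHT against muscle in each set, where 19.1% (set M) and 22.1% (set Z) of all tested genes rose and 5.35% and 4.11% fell. The counts depend on the method: limma-voom called 16 higher in set M and 3 in set Z, and quantile scaling left 1 and 2. The shares of all genes called by those methods are not given here, so these counts are no result about claudins. Besides cldn5b and cldn11a the limma-trend calls were cldnb, cldne and cldn7b in set M and cldn12, cldn19 and cldng in set Z. cldn7b, an epithelial claudin, had a median of 11.5 FPKM in CV of set M, 2.96 FPKM in CVP, 0 FPKM in CA and 0 FPKM in muscle. cldng was above 0 in 10 of 18 CHT libraries and 1 of 11 muscle libraries of set Z, at most 37.1 FPKM. The calls of cldn12, cldn19 and cldng in set Z were each lost with 2 to 4 of 6 sections left out. They held in 2, 5 and 4 of 7 other settings, in that order. In set M that of cldn7b was lost with 3 of 6 sections left out, with quantile scaling and with the count of detected genes in the fit, and that of cldnb with a pseudocount of 0.1 and with quantile scaling. The call of cldne in set M was lost with quantile scaling. The rising share of claudins was close to that of all genes, whose median difference was 0.71 and 0.65. With the CV libraries left out, cldn1 was lower in CHT than in muscle in both sets (-2.71 ± 0.68 and -2.93 ± 0.87), as was cldni in set Z (-2.65 ± 0.94, adjusted p = 0.042). There cldnb, cldne and cldn7b were no longer called in set M, nor cldn12 (1.36 ± 0.58) and cldn19 (1.31 ± 0.66) in set Z.

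Between CVP and CV, 4 of 18 claudins were called in set M: cldn5b (4.73 ± 0.86) and cldn11a (2.99 ± 0.92) higher in CVP, cldn1 (-5.12 ± 1.08) and cldnb (-4.06 ± 0.98) lower, where 4.24% of all genes rose and 0.657% fell. That of cldn11a held in 1 of 6 other settings. In set Z none was called by limma-trend or limma-voom, where 0.199% rose and 0.242% fell, although 7 claudins had an unadjusted p under 0.05, all lower in CVP (cldni -3.61 ± 1.23, cldnh -2.97 ± 1.17, cldn1 -2.54 ± 1.12 and others). Over all genes 1720 of 16547 had an unadjusted p under 0.05 there, in either direction. Between CVP and CA, 1 of 18 claudins was higher in CVP in set M (cldn11a; 3% of all genes rose and 0.372% fell) and 4 of 18 in set Z (cldn1, cldni, cldnb and cldn11a; 3.75% rose and 0.707% fell), and none lower. In set Z cldni rose there by 4.60 ± 1.23 and cldnb by 4.15 ± 1.22. Both lost their call with 4 of 6 sections left out and with the count of detected genes in the fit, and cldnb also without the filter and with quantile scaling. Without the CA libraries of layers 1 and 6, cldn1 alone stayed called in set Z. Markers also moved in CVP against CA: 6 of 24 tested epidermis markers rose in set M and 10 of 22 in set Z. The same held for 6 of 21 and 3 of 22 endothelium markers, and neither list had a marker that fell. Of the muscle markers 6 of 24 and 18 of 24 fell, and none rose. The part of these cells was not tested.

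The neural captures had a group of their own. cldn7a, of the claudin 7 genes known from epithelia, read 8.82, 49.3 and 66.7 FPKM in N of set M and 62.1, 194 and 239 FPKM in N of set Z. It had 0 reads in all 30 other libraries of set M and all 29 of set Z, so the groups do not overlap. CHT against N, it fell by 5.16 ± 0.38 (log2) in set M and by 7.21 ± 0.38 in set Z (adjusted p = 1.7e-13 and 5.6e-17), values that depend on the pseudocount because CHT is at 0. Since it passed the filter through its 6 N libraries alone, these p-values add no support to the reads. Over summed reads it was at least 96.3-fold lower in CHT in set M (0 of 3387564 reads against 325 of 3810047) and at least 1454-fold lower in set Z (0 of 22763181 against 1500 of 7829455), with the 0 set at 3 reads over the group. The difference was larger in set Z, by 2.05 ± 0.47 (set M minus set Z, adjusted p = 0.03), 1 of 16 claudins, where 0.328% of all genes differed, and with a pseudocount of 0.1 it was not called. Since cldn7a was at 0 in CHT of both sets and was tested through its N libraries alone, this test only compares its N levels. Its place in that count is no independent support. By layer it was highest in layer 2 of set M and in layer 6 of set Z and lowest in layers 17 and 22, but its slope per layer in N (-0.16 ± 0.05 and -0.08 ± 0.02) was not called over all genes (unadjusted p = 0.0087 and 0.01, adjusted p = 0.73 and 0.83).

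cldn5a, the second claudin 5 of zebrafish and known from neuroepithelium and the brain barrier, read 42.5, 108 and 166 FPKM in N of set M and 49.4, 77.1 and 175 FPKM in N of set Z. It was above 0 in 2 of 30 other libraries of set M, at most 43.3 FPKM in the L library of layer 17. In set Z it was above 0 in 6 of 29, at most 51.4 FPKM in the CA library of layer 19. CHT against N, it fell by 6.52 ± 0.58 and 5.72 ± 0.58 (log2), and N against muscle it rose by 6.23 ± 0.62 and 5.98 ± 0.63, under every alternative. Outside N fewer than 6 libraries of either set reached 1 FPKM, the L library of set Z above 0 reading 0.41 FPKM. cldn5a thus passed the filter through its N libraries, so these calls add no support to the reads. The paralogs cldn5a and cldn5b thus took opposite sides of the comparison of CHT and N in both sets.

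cldn19, known from Schwann cells and kidney of mammals, read 42.3, 66.7 and 107 FPKM in N of set M and 45.3, 74.3 and 89.9 FPKM in N of set Z. All N libraries lay above every other library, whose highest value was 15.7 and 31.8 FPKM. CHT against N, it fell by 4.76 ± 0.61 and 3.38 ± 0.73. cldn7a and cldn19 were the 2 of 18 tested claudins in each set whose N libraries lay wholly above the rest, a pattern found in 2.63% and 3.61% of all tested genes. cldn7a was among the tested claudins through its N libraries alone, so its place in this count is no independent support. cldn12, which in mammals lacks the usual scaffold-binding tail, and cldn15b also led in N, with 30.4, 44.0 and 99.5 and 14.2, 19.8 and 32.5 FPKM in set M, and 31.0, 46.7 and 54.1 and 16.0, 22.7 and 26.9 FPKM in set Z. Both overlap CHT, where cldn12 reached 52.3 FPKM and cldn15b 48.2 FPKM. cldn15b also overlaps muscle in set Z, where the L library of layer 1 held 69.9 FPKM, above every N library. cldn12 fell in CHT by 3.03 ± 0.89 and 2.64 ± 0.67 and cldn15b by 2.64 ± 0.86 and 2.18 ± 0.83. With a library's count of detected genes in the fit, cldn12, cldn15b and cldn19 were not called in either set, and cldn15b turned to 0.36 ± 1.74 in set M. In set Z the call of cldn15b held in 1 of 7 other settings and with 1 of 6 sections left out.

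Markers of other cells in or beside the neural tube also stood higher in N. CHT against N, 6 of 11 tested markers of myelinating glia fell in set M and 5 of 9 in set Z, as did 7 of 15 and 6 of 13 of floor plate and notochord, with 1 of each list rising at most in either set. Of all tested genes 26.5% and 22.6% fell there. The median difference was -1.49 and -1.83 for glia and -1.20 and -1.58 for floor plate and notochord, beside -0.91 and -0.65 for all genes. The levels of the floor plate and notochord list were 2.81 to 4.76 and 2.05 to 4.04 in N, and up to 3.49 and 3.78 in CA. Those of the pronephros and gut list were 0.86 to 1.94 and 0.99 to 1.36 in N, and at most 1.56 elsewhere. The part of these cells in the neural claudins was not tested.

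**Figure D4:**
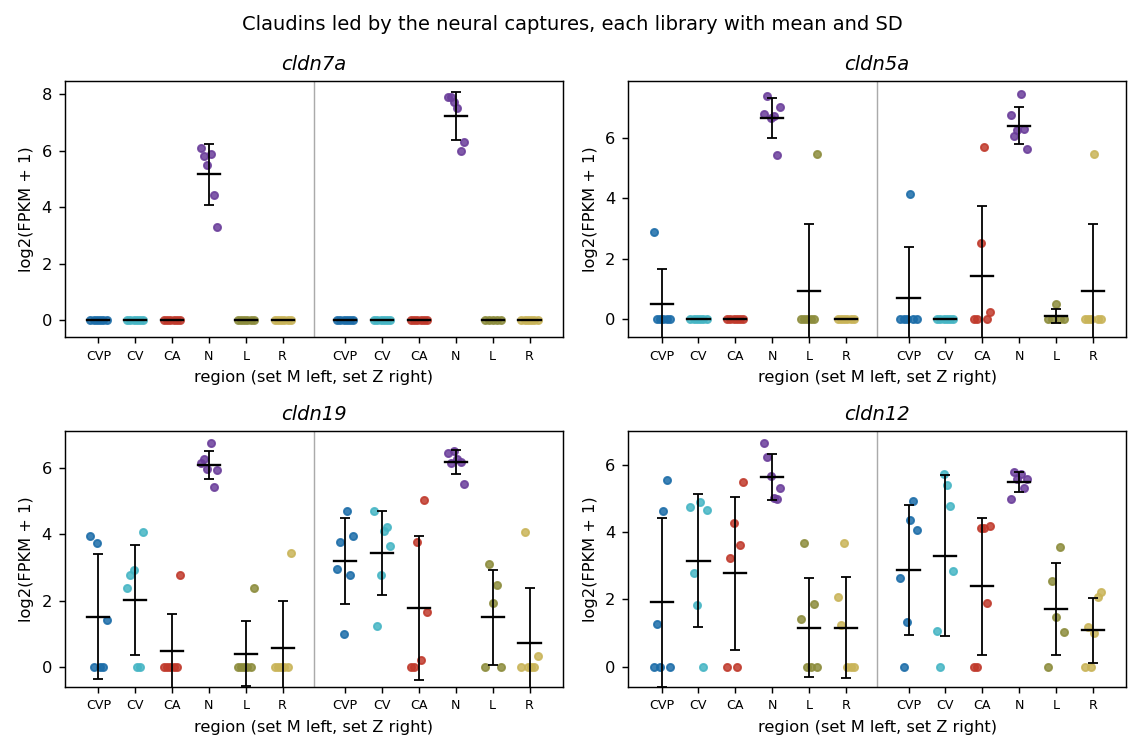
Level of cldn7a, cldn5a, cldn19 and cldn12 in each library, log2(FPKM + 1), by region of set M and set Z, with the mean and SD of each group in black. The N libraries lie above all others for cldn7a, which is at 0 elsewhere, and for cldn19, and overlap single libraries of other regions for cldn5a and several for cldn12.

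CHT against N, the tested claudins rose and fell in near equal number. In set M 5 of 18 rose and 6 fell, where 2.52% of all tested genes rose and 26.5% fell, and in set Z 5 rose and 6 fell, where 5.51% rose and 22.6% fell. Called in both sets were cldn1, cldn5b, cldne and cldni on the higher side and cldn5a, cldn7a, cldn12, cldn15b and cldn19 on the lower side. The falling share was near that of all genes and the rising share above it, and the median of all genes was -0.91 and -0.65 while that of the claudins was 0.01 and 0.82. N against muscle, 8 of 18 rose and 2 fell in set M, where 49.1% rose and 3.27% fell, and 6 rose and 4 fell in set Z, where 41.8% rose and 3.49% fell. The rising share there was below that of all genes in each set and the falling share above it. The 6 that rose in both were cldn5a, cldn7a, cldn12, cldn15b, cldn19 and CLDN4, and the 2 that fell in both were cldn1 and cldni. Of these, cldn7a and cldn5a in both sets and CLDN4 in set M reached the 6 libraries of the filter only with their N libraries. Those calls add no support to the reads. CLDN4 had a median of 1.64 and 4.56 FPKM in N, and its rise over muscle (1.85 ± 0.64 and 2.17 ± 0.59) was lost with quantile scaling and with the count of detected genes in the fit. The rises of cldn12, cldn15b and cldn19 over muscle were also lost in both sets with that count in the fit, and that of cldn15b with quantile scaling too. No claudin had a called slope on the neural marker level in either set by limma-trend, where 0.0438% and 0.00604% of all genes were called. At an unadjusted p under 0.05 there were 4 and 1 claudins, beside 2027 of 18263 and 1643 of 16547 genes.

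**Figure D5:**
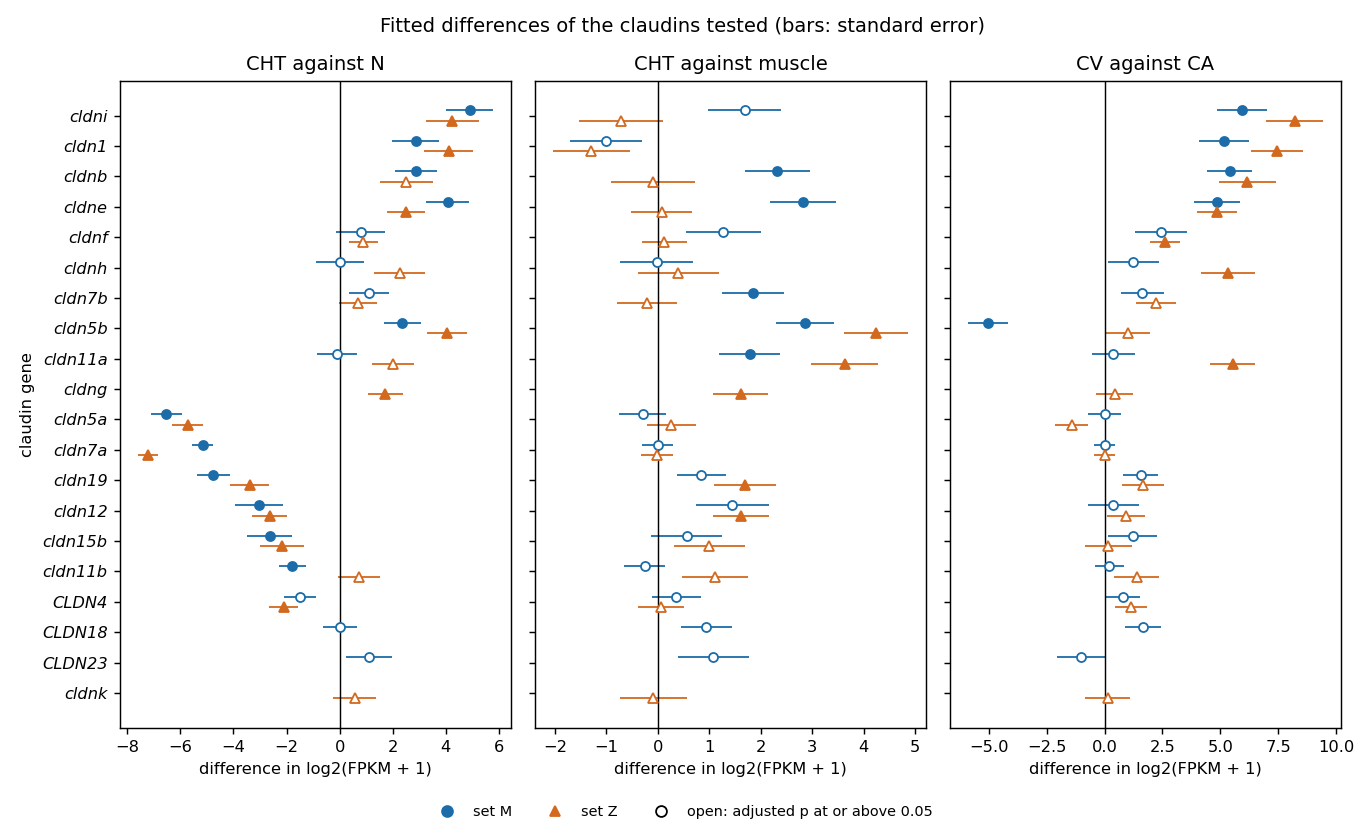
Fitted differences in log2(FPKM + 1) with standard errors for the claudins tested, CHT against N, CHT against muscle and CV against CA, circles for set M and triangles for set Z, filled where the adjusted p was under 0.05. In the first panel cldni, cldne, cldn1 and cldn5b are filled to the right in both sets and cldn5a, cldn7a, cldn19, cldn12 and cldn15b to the left, and in the third cldn5b of set M at -5.05 is the sole filled point to the left.

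Other claudins were seen in few libraries or at low levels. cldnk, known from myelinating glia of zebrafish, was above 0 in 1 of 6 N libraries of each set, at 7.07 and 2.09 FPKM, and reached 87.1 FPKM in a CA library of set M and 84.2 FPKM in a CV library of set Z. It was tested in set Z alone, where limma-trend called no difference of it. The 14 myelinating glia markers stood at 2.56 to 3.35 and 2.14 to 3.03 in N and at most 2.05 elsewhere. CLDN20 and cldn10a were untested and mostly seen in N: CLDN20 was above 0 in 5 of 6 N libraries of each set, with at most 17.6 and 12.4 FPKM, and had 0 reads elsewhere, and cldn10a was above 0 in 5 of 6 N libraries of set M and 1 of 6 of set Z. In set Z cldn10a was higher in 1 CVP library, at 9.46 FPKM, than in that N library, at 1.59 FPKM. cldn15a, the gut claudin of zebrafish, cldn2, of leaky epithelia in mammals, and cldnc were above 0 in 4, 6 and 3 of 71 libraries. Their highest values were 364 FPKM for cldn15a in 1 CV library of set M, 116 FPKM for cldn2 in 1 CVP library of set M and 32.0 FPKM for cldnc. cldnj, of the ear, had 1 read in all. cldn10b, cldn10l2, cldn15la, cldn15lb, cldna and CLDN34 were above 0 in at most 6 libraries of either set, and none passed 54.3 FPKM. CLDN18 and CLDN23, tested in set M alone, and cldn11b showed no call in both sets: CLDN18 reached 55.7 FPKM and CLDN23 105 FPKM there, and cldn11b fell in CHT against N (-1.78 ± 0.51) and rose in N against muscle (1.53 ± 0.54) in set M alone.

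Between left and right muscle no tested claudin was called by limma-trend or limma-voom, where limma-trend called 0% and 0.0121% of all genes. An unadjusted p under 0.05 by limma-trend was found for 1 claudin of 18 in each set (cldn11b and cldn5b), beside 207 of 18263 and 607 of 16547 genes. Along the layers, 0 of 18 claudins had a called slope in CHT, N or muscle of either set (limma-trend on section means), where 0% of all genes did. In that order 0, 3 and 1 claudins in set M and 4, 1 and 1 in set Z had an unadjusted p under 0.05. Over all genes these were 1000, 1205 and 884 of 18263 in set M and 1800, 971 and 1579 of 16547 in set Z. The differences between sets, beyond those of cldn7a and cldn5b above, were called by limma-trend for 0 of 16 claudins in CHT against muscle (5 with an unadjusted p under 0.05; 0.629% of all genes called), N against muscle (1; 0%), CVP against CA (1; 0.045%) and CVP against CV (3; 0.193%). Over all genes 1723, 805, 1458 and 1565 of 15571 had an unadjusted p under 0.05, in that order.

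Partners of claudins in the junction were followed in the same comparisons. Of 12 tested scaffold genes, 9 rose in N against muscle in set M, where 49.1% of all genes rose, and 6 in set Z, where 41.8% rose, and none fell. They include the ZO-1 genes tjp1a (3.05 ± 0.77 and 2.27 ± 0.56) and tjp1b (4.16 ± 0.66 and 3.02 ± 0.64), and the scaffold magi1a fell in CHT against N (-4.33 ± 0.51 and -4.19 ± 0.56). CHT against muscle, 6 of 12 rose in set M (19.1% of all genes) and 2 of 12 in set Z (22.1% of all genes), where 1 fell, with tjp1a at 1.84 ± 0.58 and 1.58 ± 0.43. The list medians (2.08 and 1.86 for N against muscle) stood beside 1.63 and 1.32 for all genes. Among genes of the occludin family and of contacts where 3 cells meet, 1 of 9 tested in set M and 4 of 8 in set Z rose in CV against CA, beside 1.41% and 3.41% of all genes. Called in both was ildr1a (3.29 ± 0.81 and 3.76 ± 1.03). Its relative ildr2 fell in CHT against N (-4.52 ± 0.85 and -3.31 ± 0.99). Of the junctional adhesion molecules, f11r.1 rose in CHT against N by 2.44 ± 0.80 and 3.96 ± 0.92, and jam3a (-3.12 ± 0.51 and -3.47 ± 0.64) and cxadr (-2.32 ± 0.65 and -1.69 ± 0.47) fell. Of the apical polarity genes, 10 of 15 tested rose in N against muscle in set M and 5 of 12 in set Z, beside the same 49.1% and 41.8% of all genes, and none fell.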

How the data were processed

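The authors deposited FPKM per gene, 1 table a set, made from polyA RNA amplified by PCR in the manner of single-cell libraries, per the labels' protocols. The submitters' processing notes name FastQC, HISAT, HTSeq, DESeq2 and the build GRCz10, with no versions or roles, and strand settings are not given in the sources used here. No molecular identifiers are named, so limits at 0 reads cover counting error only. Such limits pool reads over sections, so deep libraries weigh most and spread among sections is not covered. Whole reads, recovered from the steps of the low FPKM values (tolerance 0.001 reads), gave depth and the floor of 3 reads. All columns were tied to samples.

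limma 3.58.1 (limma-trend, R 4.3.3) was run on log2(FPKM + 1) in each set, with terms for region and section, for genes of at least 1 FPKM in at least 6 libraries. Section is the block because the study took all 6 regions from each section, and libraries of a section deviated together only weakly (median r = 0.006 over 90 pairs in set M and 0.017 over 85 in set Z, against -0.001 and -0.004 for other sections). Fold changes on this scale understate those of low genes. Calls are two-sided at an adjusted p under 0.05 over all genes. Alternatives are in the closing section. On data simulated for CHT against N, 82% and 97% of genes changed by 4 log2 units and 18% and 48% of those changed by 2 were recovered in sets M and Z (18200 and 16413 genes). The changed genes were drawn from those above the median share of reads. All genes had the same simulated dispersion, with no section effect and regions otherwise alike. These rates therefore do not cover low genes or genes seen in few libraries. Members and lists were chosen with earlier results of these data known. Genes given values were a panel of 20 claudins and those called alike in sets M and Z. CLDN20 and cldnj were named after their values were seen.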

Additional observations from a re-analysis of the deposited data

Results flagged for a closer look

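A library was set against the others of its region and set by the gap to its nearest neighbour (Dixon's rule at 95%), for the leading claudins and marker levels in 89 groups, of which chance flags about 1 in 20. Low in N were cldn5a in layer 15 of set M, at 42.5 FPKM, and cldn19 in layer 25 of set Z, at 45.3 FPKM. Low in CV were cldn1 in layer 15 of set M, at 0 FPKM, and cldn1 in layer 25 of set Z, at 79.8 FPKM, a library whose epidermis marker level, 5.90, was also apart from its group. In CVP of set Z cldn15b stood apart in layer 6, at 0 FPKM. High marker levels were those of epidermis in CA of layer 17 in set M, at 7.94, of endothelium in R of layer 17, at 1.04, of neural tissue in CA of layer 6, at 1.68, and of neural tissue in L of layer 17, at 1.01.

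A pair of comparisons differed between the sets by a test of the difference itself. That of cldn7a in CHT against N was 2.05 (log2, set M minus set Z), and that of cldn5b in CV against CA was -6.07.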

How the results depend on the processing

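Of 82 claudin calls, 31 held under every setting apart from those chosen after seeing the data, 4 of them those of cldn7a, which could not be fitted with a section left out since its 5 remaining N libraries fall short of the filter. Of the 76 calls with such fits, 49 held with each section left out. Calls were lost most often with a library's count of detected genes as a covariate (36) and with quantile scaling (25), against 8 with limma-voom, 8 with a pseudocount of 0.1 and 7 without the filter. Quantile scaling moved the median of all genes in CHT against N from -0.91 to 0.21 and from -0.65 to 0.07. Called differences that changed sign were cldn15b in CHT against N (0.36) and in N against muscle (-0.22) and cldn11a in N against muscle (-1.55) with the detected genes covariate, and cldn11b in N against muscle (-0.60) with quantile scaling, all in set M. The cause was not tested.

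Counts of called claudins (set M unless stated, the reported count in brackets) moved as follows. The shares of all genes called under these settings are not given here. With the detected genes covariate they were 3 for CHT against N (11), 3 for CHT against muscle (5), 2 for N against muscle (10), 0 for CVP against CA (1) and 2 for CVP against CV (4), and in set Z 2 for CHT against muscle (5), 6 for N against muscle (10) and 0 for CVP against CA (4). With quantile scaling they were 1 for CHT against muscle, 6 for N against muscle and 0 for CVP against CA, in set Z 2 for CHT against muscle and 2 for CVP against CA, and 0 for the difference between sets in CV against CA (1). With limma-voom they were 16 and, in set Z, 3 for CHT against muscle, and 0 for CVP against CA. A pseudocount of 0.1 gave 0 epidermis slopes (3) and 0 for the difference between sets in CHT against N (1). No filter gave 2 for CVP against CA of set Z, and for the difference between sets 2 in CHT against N and 2 in N against muscle (0). Without the replicate block of sections 5 epidermis slopes were called, and 3 calls were lost in all. Each section left out gave 3 to 6 for CHT against muscle, 6 to 8 for N against muscle, 0 to 2 for CVP against CA, 2 to 6 for CVP against CV and 0 to 2 epidermis slopes, and in set Z 2 to 5 for CHT against muscle, 1 to 3 for CVP against CA, 0 to 1 for CVP against CV (0) and 2 to 4 epidermis slopes (4).

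Alternatives chosen after seeing the data were these. Without CV libraries CHT against muscle gave 3 and CHT against N of set Z gave 7 (11). Without the layer 17 CA library no epidermis slope was called, and without the CA and CVP libraries of layer 17 the counts were 0 there, 2 for CVP against CA and 7 for CVP against CV. Without the CA libraries of layers 1 and 6 in set Z, CVP against CA gave 1. Depth limits genes of few reads: 3 reads of cldn5b are 3.74 to 24.3 FPKM in CV of set M.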
